A study of Mus musculus with 24 samples.

Results

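Interferon response genes are the genes that a cell switches on when an interferon binds its receptor. A list of 38 of them in the mouse was followed through all 24 liver libraries of the study. Members were found by symbol, by matching the gene identifiers of the expression table to RefSeq. Of the 38, 36 had a row among the 18171 genes of the table, and all 36 passed the filter on low values, which kept the 10532 genes that reached an FPKM of 1 in 6 or more libraries. Mx1 and Mx2 were not analysed here. FPKM is the number of fragments per kilobase of gene, scaled to the size of the library, so that levels of different genes can be compared per length.

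The libraries were made from liver RNA of C57BL/6 mice, 12 from mice that overexpressed L2d13 (L2 delta13) and 12 from wild-type (WT) mice. Within each genotype, 6 sample names hold the digit 2 and 6 the digit 4, which gave 4 groups of 6 libraries, referred to as set 2 and set 4. The labels used here give no meaning of that digit, no age, sex or time, and nothing on how the overexpression was driven. The names also hold running numbers that fall in a separate block for each group, so genotype within a set and whatever those numbers follow cannot be told apart. The labels do not say whether each library was a separate animal, and p-values measure the spread between these libraries only.

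The targeted gene checked the labels. The labels do not spell out L2, which is a name in use for lysyl oxidase like 2 (Loxl2). Gm21451 is an annotated copy of that gene. Gm21451 ran from 40.6 to 266 FPKM over the L2d13 libraries and from 0.03 to 1.27 over the WT libraries, with no overlap. Loxl2 itself ran from 0.83 to 2.26 FPKM with L2d13 and from 0.36 to 1.26 without. Summed FPKM of 6 hepatocyte markers (Alb, Ttr, Apoa1, Tat, Serpina1a and Fgb) lay between 27414 and 55671 in all libraries. Read totals cannot be had from FPKM. The FPKM worth of 1 fragment, read from the steps between low values of 244 genes, lay within 2% of the common value in 14 libraries. In the other 10 it lay between 0.955 and 1.29 of it, the highest being WT set 2 library 6 (1.29), WT set 4 library 9 (1.11) and L2d13 set 2 library 3 (1.10). More of these 10 were WT than L2d13. The L2d13 ones were set 2 library 3 and set 4 libraries 7 and 11. The WT ones were set 2 libraries 3, 5 and 6 and set 4 libraries 9, 10, 11 and 12.

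In an interferon response, cytosolic sensors detect foreign or misplaced nucleic acid and bring about the production of interferon. Type I interferon then acts through its receptor, the kinases Jak1 and Tyk2 and a complex that includes Stat2 and Irf9, which binds the interferon-stimulated response element in the promoters of its target genes. Type II interferon acts at the gamma-activated site. Many sensors and factors of the pathway are themselves targets. In liver, hepatocytes, Kupffer cells (resident macrophages) and sinusoidal endothelial cells all respond. In bulk liver RNA, fewer cells of a type and less RNA per cell cannot be told apart.

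Promoters were searched from 250 bases before to 50 bases after the start site of each gene (RefSeq, GRCm38.p6) for the core of the response element, GAAA and GAAA with any 2 bases between them, on either strand. Of 27025 genes with a promoter entry 1079 (3.99%) held it, and of the 29 members with an entry 15 did (51.7%). The 17 members that were called higher in L2d13 livers and had an entry held it in 8 cases, and the other 12 in 7. The looser core of the gamma-activated site, TTCNNNGAA, was present in 9.55% of all genes and in 6 of the 29 members, of which 1 (Ifit2) was called higher. A match is a run of letters, not a bound site. The stretches below show the core, in capitals, on the strand of the gene. The first 6 genes were called higher in L2d13 livers over both sets, and the last 4, Isg15, Oas1a, Stat2 and Bst2, were not.
Ifit1 (chr19:34640773-34640825, plus strand): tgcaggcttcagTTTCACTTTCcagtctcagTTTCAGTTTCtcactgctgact
Ifit3 (chr19:34583361-34583428, plus strand): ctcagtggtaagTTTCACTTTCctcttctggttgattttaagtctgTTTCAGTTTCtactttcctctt
Ifit3b (chr19:34607757-34607824, plus strand): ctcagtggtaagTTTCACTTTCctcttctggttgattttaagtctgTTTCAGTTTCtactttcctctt
Rsad2 (chr12:26456551-26456584, minus strand): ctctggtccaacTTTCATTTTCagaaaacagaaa
Irgm1 (chr11:48871423-48871462, minus strand): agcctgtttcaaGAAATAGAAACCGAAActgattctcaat
Gbp3 (chr3:142559987-142560026, plus strand): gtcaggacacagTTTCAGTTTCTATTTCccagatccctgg
Isg15 (chr4:156200863-156200908, minus strand): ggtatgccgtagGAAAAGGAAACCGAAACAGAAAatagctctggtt
Oas1a (chr5:120907526-120907557, minus strand): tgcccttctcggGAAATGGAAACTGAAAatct
Stat2 (chr10:128270264-128270297, plus strand): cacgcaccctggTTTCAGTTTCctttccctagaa
Bst2 (chr8:71537575-71537614, minus strand): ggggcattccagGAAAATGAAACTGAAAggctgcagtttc
The stretches of Ifit3 and Ifit3b are the same letter for letter, and those of Ifit1 hold the same pair of core copies with a shorter spacer. Isg15 has 3 overlapping copies. Members that rose and members that were not called thus both carry the core within this window.

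Most of the members were higher in L2d13 livers. Over both sets, 22 of the 36 members rose and 0 fell (61.1% called higher), against 25.9% of all tested genes called higher and 4.86% called lower (limma on log2(FPKM + 1), Benjamini-Hochberg adjusted p under 0.05). The log2 difference of the members ran from -0.29 to 1.37 with a median of 0.41, and the median over all tested genes was 0.12. It was above 0 in 32 of 36 members and in 69.7% of all tested genes. At an unadjusted p under 0.05, 26 members were higher and 2 lower, and 4423 of the 10532 genes differed in either direction. The background was not level: with libraries rescaled by a median of ratios the median over all genes moved from 0.12 to 0.01, and the calls over all genes from 2730 higher and 512 lower to 1294 and 1100 (1310 and 1079 under quantile normalization). With median-of-ratios scaling 18 members rose, Bst2, Psmb8 and Trim25 fell, and the median of the members was 0.30. Within the 14 libraries of like FPKM per fragment, of which more were L2d13 than WT, the counts were likewise 18 higher and 3 lower. There 19.1% of all genes were called higher and 12.3% lower. With a filter on 12 libraries 33 members were tested and 20 rose, beside 26.5% of all genes called higher.

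**Figure D1:**
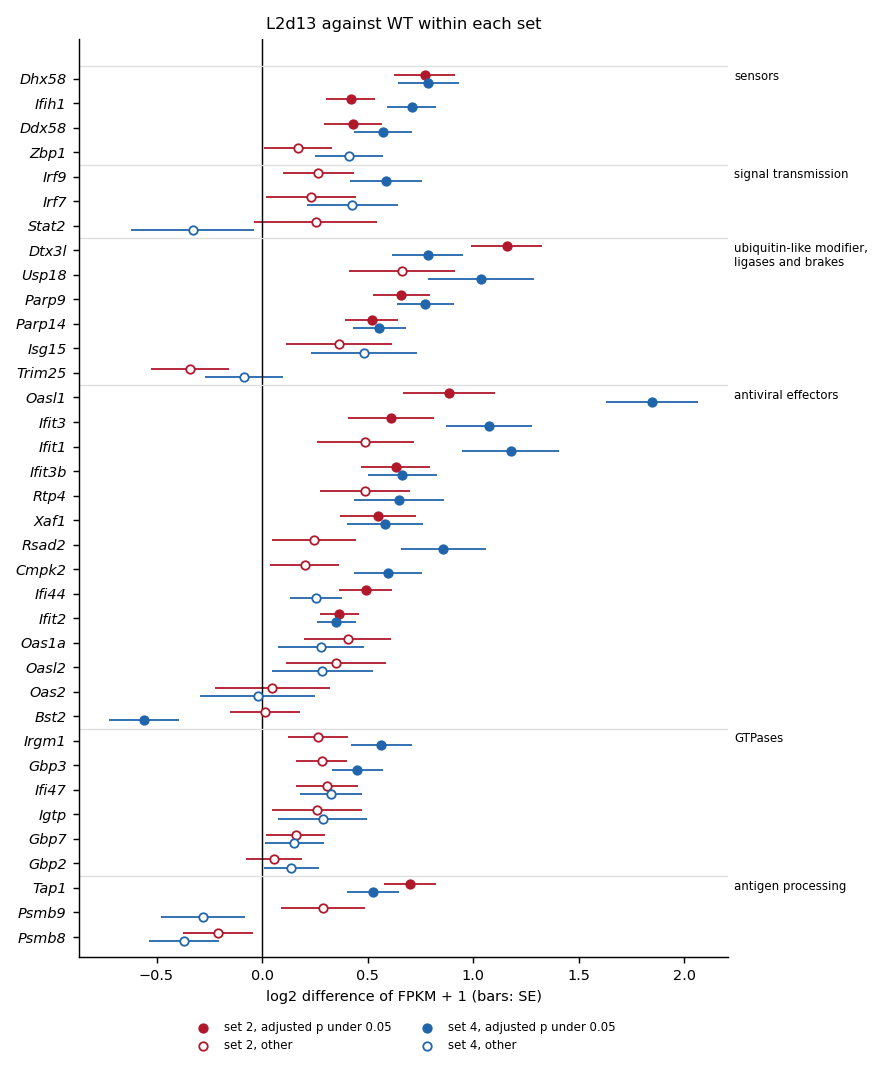
Log2 difference of FPKM + 1 between L2d13 and WT livers for each of the 36 members, in set 2 (red) and set 4 (blue), ordered by role; points are estimates from limma, bars their standard errors, and filled points have an adjusted p under 0.05. Oasl1 in set 4 (1.85) lies farthest to the right and Bst2 in set 4 (-0.56) farthest to the left.

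Of the 4 sensor genes, the 3 helicases that detect double-stranded RNA rose in both sets. Dhx58 (gene 80861, chromosome 11, 100694884 to 100704271), which encodes LGP2, a regulator of the other helicase sensors, had a lowest, median and highest FPKM of 5.82, 7.08 and 9.44 in L2d13 and 3.16, 3.58 and 5.42 in WT livers of set 2. In set 4 the values were 3.73, 5.15 and 6.67 against 1.92, 2.35 and 4.10. The groups did not overlap in set 2, and in set 4 they overlapped through WT library 9 alone. The log2 difference over both sets was 0.78 ± 0.10 (SE, adjusted p = 7.43e-06), a 1.72-fold difference of FPKM + 1, and it was of like size in set 2 (0.77) and set 4 (0.79). Ifih1 (gene 71586, chromosome 2, 62595798 to 62646255) encodes MDA5, the sensor of long double-stranded RNA. Its FPKM was 5.03, 5.83 and 6.93 against 3.26, 3.67 and 6.30 in set 2, and 4.45, 5.15 and 6.29 against 2.43, 2.82 and 3.18 in set 4. Every L2d13 library of set 4 thus lay above every WT library, and the log2 difference over both sets was 0.56 ± 0.09 (adjusted p = 3.76e-05). Ddx58 (gene 230073) encodes RIG-I, the sensor of RNA with a 5' triphosphate, and its L2d13 libraries of set 4 were also apart, at 3.93, 4.13 and 4.71 against 1.53, 2.65 and 3. In set 2 its groups overlapped (4.37, 5.49 and 6.27 against 2.43, 3.69 and 5.94), and over both sets the log2 difference was 0.50 ± 0.10 (adjusted p = 0.000451). In set 2 the calls of Ifih1 and Ddx58 were lost under both rescalings and in a fit of that set alone. That of Ddx58 was also lost there with no filter, with the replicate block, and without L2d13 set 2 library 1, 3, 4 or 6 or WT set 2 library 1, 2 or 4 (adjusted p up to 0.105). Zbp1, a sensor of Z-form nucleic acid, had a log2 difference of 0.29 and missed the threshold (adjusted p = 0.0542).

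Of the 3 factors that transmit the signal, Irf9 rose and Stat2 and Irf7 were not called. Irf9 (gene 16391), a DNA-binding part of the complex with Stat2, had an FPKM of 12.7, 17.2 and 20.6 in L2d13 and 11.5, 12.1 and 18.6 in WT livers of set 2. In set 4 it had 12.3, 16.1 and 20.6 against 7.27, 10.5 and 14.1. Its log2 difference was 0.43 ± 0.12 over both sets (adjusted p = 0.00988), with groups that overlapped in both sets, and the call was lost under median-of-ratios scaling and quantile normalization. Stat2 (gene 20847), its partner, spread widely within groups: 13.02, 18.9 and 49.1 in L2d13 against 8.91, 16.2 and 43.8 in WT in set 2, and 12.5, 13.6 and 22.5 against 13.9, 18.3 and 27.6 in set 4. The difference was -0.04 ± 0.21 over both sets (adjusted p = 0.917), 0.25 in set 2 and -0.33 in set 4. The highest values of set 2 came from L2d13 library 3 and WT library 6, which stood apart in FPKM per fragment as well. Irf7 (gene 54123), the factor that amplifies type I interferon production, had medians of 15.5 in both genotypes of set 2 and of 10.9 in L2d13 against 8.63 in WT of set 4. Its log2 difference of 0.33 ± 0.15 missed the threshold (adjusted p = 0.0974).

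Among the modifiers, ligases and brakes, 4 of 6 members rose (25.9% of all genes), and 3 of these were neighbours on chromosome 16. Dtx3l (gene 209200, 35926511 to 35939151) is a ubiquitin ligase that works in a complex with Parp9 (gene 80285, 35938470 to 35972605), and Parp14 (gene 547253) is a related enzyme that attaches single ADP-ribose units. Dtx3l had an FPKM of 9.17, 10.7 and 12.8 in L2d13 and 2.59, 5.07 and 6.00 in WT livers of set 2, and of 7.82, 8.89 and 13.3 against 3.39, 5.20 and 6.13 in set 4. No L2d13 library overlapped a WT library in either set. The log2 difference over both sets was 0.97 ± 0.12, a 1.96-fold difference, with the smallest adjusted p of the members (5.06e-06). Parp9 had 14.1, 19.1 and 21.5 against 8.77, 11.03 and 15.1 in set 2, and 13.7, 16.1 and 20.6 against 7.54, 9.03 and 12.7 in set 4. Its libraries were apart in set 4 and all but apart in set 2, where 1 WT library reached into the L2d13 range, and its log2 difference was 0.72 ± 0.09 (adjusted p = 7.82e-06). Dtx3l and Parp9 lie on opposite strands and overlap by 682 bases. Whether counting used strand is not given in the sources used here, so reads from the overlap cannot be assigned to either gene. Parp14 rose by a log2 difference of 0.54 ± 0.09 (adjusted p = 8.27e-05), with L2d13 libraries of set 4 at 3.21 to 4.27 and WT libraries at 1.61 to 3.13.

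Isg15 is the ubiquitin-like protein that gives the pathway its best known modification, and Usp18 removes it from proteins and also blocks signalling at the type I receptor. Usp18 (gene 24110, chromosome 6, 121245906 to 121270917) had an FPKM of 6.44, 7.96 and 13.8 in L2d13 and 3.63, 4.69 and 7.07 in WT livers of set 2. In set 4 the values were 4.03, 7.70 and 13.98 against 1.69, 2.55 and 6.45. The medians differed clearly but the groups overlapped in both sets, and the log2 difference was 0.85 ± 0.18 (adjusted p = 0.000939). Isg15 itself had a difference of 0.42 and was not called (adjusted p = 0.0649), though it was called when L2d13 set 2 library 2 or 3, L2d13 set 4 library 12 or WT set 2 library 6 was left out. Trim25, a ligase that activates RIG-I, had a difference of -0.21 (adjusted p = 0.225).

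**Figure D2:**
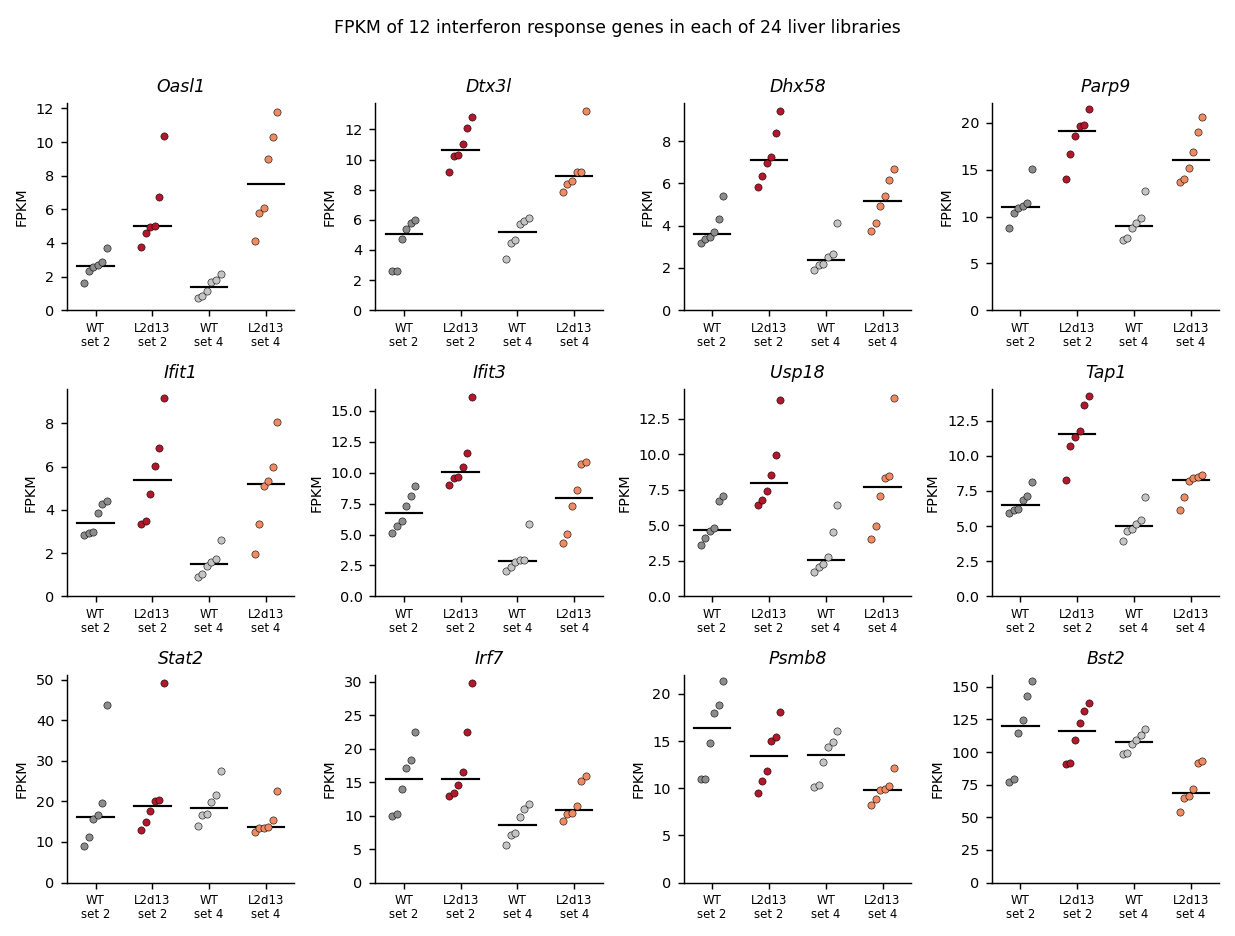
FPKM of 12 members in each library, with WT in grey and L2d13 in colour; each point is 1 library, bars are group medians, and every axis starts at 0. In Oasl1 and Dtx3l all L2d13 libraries lie above all WT libraries of their set, while in Stat2 and Irf7 the groups overlap and in Bst2 the L2d13 libraries of set 4 lie lowest.

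The antiviral effectors rose in 10 of 14 cases, beside 25.9% of all genes called higher. Oasl1 (gene 231655, chromosome 5, 114923240 to 114937915) belongs to the family of oligoadenylate synthetases but lacks their activity, and in mouse cells it holds back translation of Irf7. It showed the greatest log2 difference of the 36 members. In set 2 its FPKM was 3.73, 4.99 and 10.4 in L2d13 and 1.63, 2.63 and 3.72 in WT livers, and in set 4 it was 4.10, 7.53 and 11.8 against 0.75, 1.40 and 2.18. The L2d13 libraries were above the WT libraries without overlap in both sets, although by only 0.01 FPKM at the nearest pair of set 2. The log2 difference was 1.37 ± 0.18 over both sets, a 2.58-fold difference of FPKM + 1 (adjusted p = 8.17e-06). It was 0.89 ± 0.22 in set 2 and 1.85 ± 0.22 in set 4. Its neighbour Oasl2 (0.32), Oas1a (0.34) and Oas2 (0.01), which make or resemble makers of the second messenger that activates RNase L, were not called over both sets (adjusted p between 0.0703 and 0.965).

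The 4 Ifit genes, whose proteins bind foreign RNA and block its translation, lie side by side on chromosome 19 from 34550694 to 34650009 and all rose. Ifit1 (gene 15957) had an FPKM of 3.33, 5.38 and 9.18 against 2.82, 3.40 and 4.42 in set 2, and 1.94, 5.22 and 8.06 against 0.90, 1.48 and 2.60 in set 4. Both sets overlapped, and the log2 difference was 0.83 ± 0.17 (adjusted p = 0.000915). Ifit3 (gene 15959) had 9.01, 10.1 and 16.1 against 5.13, 6.72 and 8.90 in set 2, where the groups did not overlap, and 4.30, 7.96 and 10.9 against 2.04, 2.85 and 5.86 in set 4. Its log2 difference was 0.84 ± 0.15 (adjusted p = 0.000188). Ifit3b (gene 667370, 0.65 ± 0.11, adjusted p = 0.000172) and Ifit2 (gene 15958, 0.36 ± 0.06, adjusted p = 0.000221) were low in level, with group medians of 0.51 to 2.79 and 0.37 to 1.46 FPKM. Both were apart in set 4, at 0.83 to 2.56 against 0.33 to 0.78 for Ifit3b and 0.60 to 0.89 against 0.22 to 0.54 for Ifit2. At such levels the pseudocount of 1 makes the log2 difference smaller than that of FPKM itself. Fewer than 6 WT libraries reached an FPKM of 1 for either gene, so both passed the filter only with the help of L2d13 libraries. With a filter on 12 libraries Ifit2 was not tested, and with no filter both calls over both sets were kept. Ifit3 and Ifit3b are near copies, and how reads were divided between them is uncertain.

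Rsad2, the viperin enzyme that makes a chain-terminating nucleotide, and Cmpk2, a nucleotide kinase, are neighbours on chromosome 12 with 12751 bases between them. Rsad2 (gene 58185) had medians of 3.69 in L2d13 and 3.25 in WT livers of set 2 and of 4.26 and 1.64 in set 4, and its log2 difference over both sets was 0.55 ± 0.15 (adjusted p = 0.00779). Cmpk2 (gene 22169) had medians of 2.58 and 2.25 in set 2 and of 2.23 and 1.03 in set 4, with a difference of 0.40 ± 0.12 (adjusted p = 0.0134). Both were called in set 4 and not in set 2, and the difference between the sets was not called for either. Xaf1 (gene 327959), which promotes cell death, rose by 0.57 ± 0.13 (adjusted p = 0.00155), with L2d13 libraries at 1.51 to 5.36 and WT libraries at 0.77 to 2.85. Rtp4 (0.57) and Ifi44 (0.37) also rose. For Ifi44 too, fewer than 6 WT libraries reached an FPKM of 1. It was not tested with a filter on 12 libraries, and its call over both sets was kept with no filter. The calls of Cmpk2 and Rsad2 were lost under quantile normalization, and that of Cmpk2 under median-of-ratios scaling too. Within the libraries of like FPKM per fragment the calls of Cmpk2, Rsad2 and Ifi44 were lost.

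Bst2 went the other way. Bst2 (gene 69550, chromosome 8, 71534255 to 71537456), the tetherin that holds enveloped virus at the cell surface, was the most abundant member per length. In set 4 its FPKM was 54.3, 69.0 and 93.1 in L2d13 against 98.7, 107.7 and 118 in WT livers, with all L2d13 libraries below all WT libraries. The log2 difference there was -0.56 ± 0.17 (adjusted p = 0.0267). In set 2 the genotypes overlapped throughout, at 91.0, 116 and 138 against 76.8, 120 and 154, with a difference of 0.01 ± 0.17. Over both sets it was -0.27 ± 0.13 and not called (adjusted p = 0.105). Under both rescalings, with library weights and within the libraries of like FPKM per fragment Bst2 was called lower over both sets. So it was without WT set 2 library 3 or 5. The call in set 4 was lost when L2d13 set 4 library 8, 10 or 12 or WT set 4 library 9 or 12 was left out. It was also lost with the replicate block and within the libraries of like FPKM per fragment.

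The interferon-induced GTPases, which take part in the defence against intracellular microbes, rose in 3 of the 6 members, beside 25.9% of all genes. Irgm1 rose by a log2 difference of 0.42, Gbp3 by 0.37 and Ifi47 by 0.32, and Igtp (0.27), Gbp7 (0.16) and Gbp2 (0.10) were not called. Gbp3 (gene 55932) had an FPKM of 1.69, 2.36 and 3.23 against 1.40, 1.88 and 2.31 in set 2 and of 1.15, 1.73 and 2.02 against 0.73, 0.82 and 1.45 in set 4. Its difference was 0.37 ± 0.09 (adjusted p = 0.00225), and its groups overlapped in both sets. The calls of Irgm1 and Ifi47 were lost under both rescalings, and that of Ifi47 also within the libraries of like FPKM per fragment.

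The 3 antigen processing genes lie next to each other on chromosome 17, and only the middle one, Tap1, was called. Tap1 (gene 21354, 34187553 to 34197225), a subunit of the transporter that brings peptides to class I molecules, had an FPKM of 8.31, 11.5 and 14.3 against 5.90, 6.51 and 8.13 in set 2, without overlap, and of 6.16, 8.29 and 8.62 against 3.94, 4.97 and 7.08 in set 4. The log2 difference was 0.61 ± 0.09 (adjusted p = 2.11e-05). Psmb9 and Psmb8, subunits of the immunoproteasome that cuts those peptides, had differences of 0.01 (adjusted p = 0.984) and -0.29 (adjusted p = 0.0581). Psmb8 was called lower under both rescalings, with library weights, within the libraries of like FPKM per fragment, and without L2d13 set 2 library 3 or 6, L2d13 set 4 library 7, WT set 2 library 3 or 5 or WT set 4 library 7 or 8. Tap1 and Psmb9 overlap by 212 bases on opposite strands, with the same limit as for Dtx3l and Parp9.

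Within single sets, 13 members rose and 0 fell in set 2 (36.1% higher), where 13% of all genes were called higher and 2.13% lower. In set 4, 20 rose and 1 fell (55.6% higher), against 10.3% and 2.97% of all genes. The median log2 difference was 0.36 in set 2 (all genes 0.16) and 0.50 in set 4 (all genes 0.08). The count of set 2 dropped to 7 under median-of-ratios scaling and 5 under quantile normalization, where 3.88% and 3.92% of all genes were called higher. That of set 4 dropped to 16 under each of these rescalings, where 6.25% and 6.69% of all genes were called higher. It dropped to 5 within the libraries of like FPKM per fragment, which left 4 L2d13 and 2 WT libraries there. In that fit 2.7% of all genes were called higher. In set 2, all 6 L2d13 libraries lay above all 6 WT libraries in 5 members (Ifit3, Oasl1, Dhx58, Dtx3l and Tap1), as in 5.44% of all genes, and below them in 0, against 0.56%. In set 4 they lay above in 8 (Ifit2, Ifit3b, Oasl1, Ddx58, Ifih1, Parp9, Parp14 and Dtx3l), as in 4.86% of all genes, and below in Bst2 alone, against 1.7%.

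The set difference in the L2d13 effect was not resolved for any member. In limma's test of that difference (the effect in set 4 minus that in set 2), 0 members were higher and 0 lower, against 0.0285% and 0.123% of all genes, and at an unadjusted p under 0.05, 3 were higher and 1 lower, beside 747 of all 10532 genes in either direction. The smallest adjusted p of the members was 0.352, for Oasl1 (0.96 ± 0.31). Ifit1 (0.69 ± 0.33), Rsad2 (0.61 ± 0.28) and Bst2 (-0.57 ± 0.23) were the next by p.

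The level of the members also differed between the sets within a genotype. In WT livers 34 of the 36 members were lower in set 4 than in set 2, where 30.98% of all genes were higher, with a median log2 difference of -0.43 against -0.08 for all genes, and 27 had an unadjusted p under 0.05, as had 852 of the 10532 genes. After adjustment 3 members were called lower (0.104% of all genes) and 0 higher (0.0855% of all genes). These were Ifit2 (-0.48, adjusted p = 0.0229), Ifit3 (-0.96, adjusted p = 0.0492) and Gbp3 (-0.56, adjusted p = 0.0492), and Cmpk2 (-0.70) followed with an adjusted p of 0.0973. The count depended on single libraries. It was 0 without WT set 2 library 2, 3, 5 or 6 or WT set 4 library 10, 11 or 12. It was 1 without L2d13 set 2 library 1, 2 or 4, L2d13 set 4 library 7 or 8, WT set 2 library 4 or WT set 4 library 7, and 5 without WT set 4 library 8. Under median-of-ratios scaling it was 1, and with library weights 19. Of all genes, 0.0475% and 10.8% were called lower in these settings, in that order.

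In L2d13 livers 34 of 36 members were again lower in set 4, where 21.8% of all genes were higher, with a median of -0.39 against -0.15 for all genes. Those called were 7 lower (5.51% of all genes) and 0 higher (0.551% of all genes). The 7 were Ifit2 (-0.49), Ifi44 (-0.59), Tap1 (-0.51), Ifit3b (-0.64), Bst2 (-0.63), Oas1a (-0.71) and Psmb9 (-0.67). Their number was 2 under median-of-ratios scaling and 1 under quantile normalization, where 2.02% and 1.98% of all genes were called lower. It fell to 4 without L2d13 set 2 library 3 or 6 or L2d13 set 4 library 8 or 10, and to 3 without L2d13 set 4 library 12. Oasl1 was 1 of the 2 members with a higher level in set 4 (0.35, not called), the other being Trim25 (0.21). Of the 4 group medians of each member, that of L2d13 set 2 was the highest in 29 members and that of WT set 4 the lowest in 30. The share of all genes with such an order was not computed, and all genes leaned the same way. Of all tested genes, 75.85% had a log2 difference above 0 between L2d13 and WT in set 2, and 60.3% in set 4. The comparisons of genotype and of set share libraries and are not independent of each other.

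**Figure D3:**
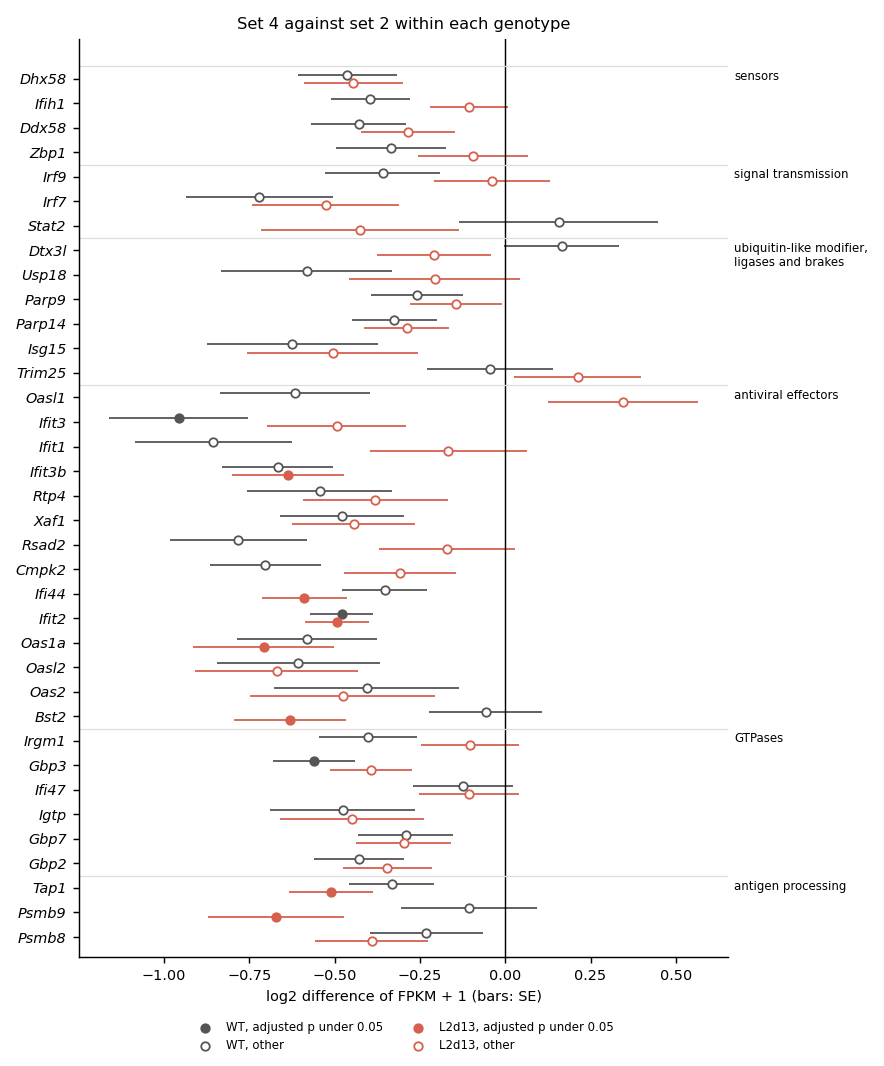
Log2 difference of FPKM + 1 between set 4 and set 2 for each of the 36 members in WT (grey) and L2d13 (red) livers; bars are standard errors and filled points have an adjusted p under 0.05. In each genotype 34 of 36 points lie below 0, with medians of -0.43 in WT and -0.39 in L2d13.

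**Figure D4:**
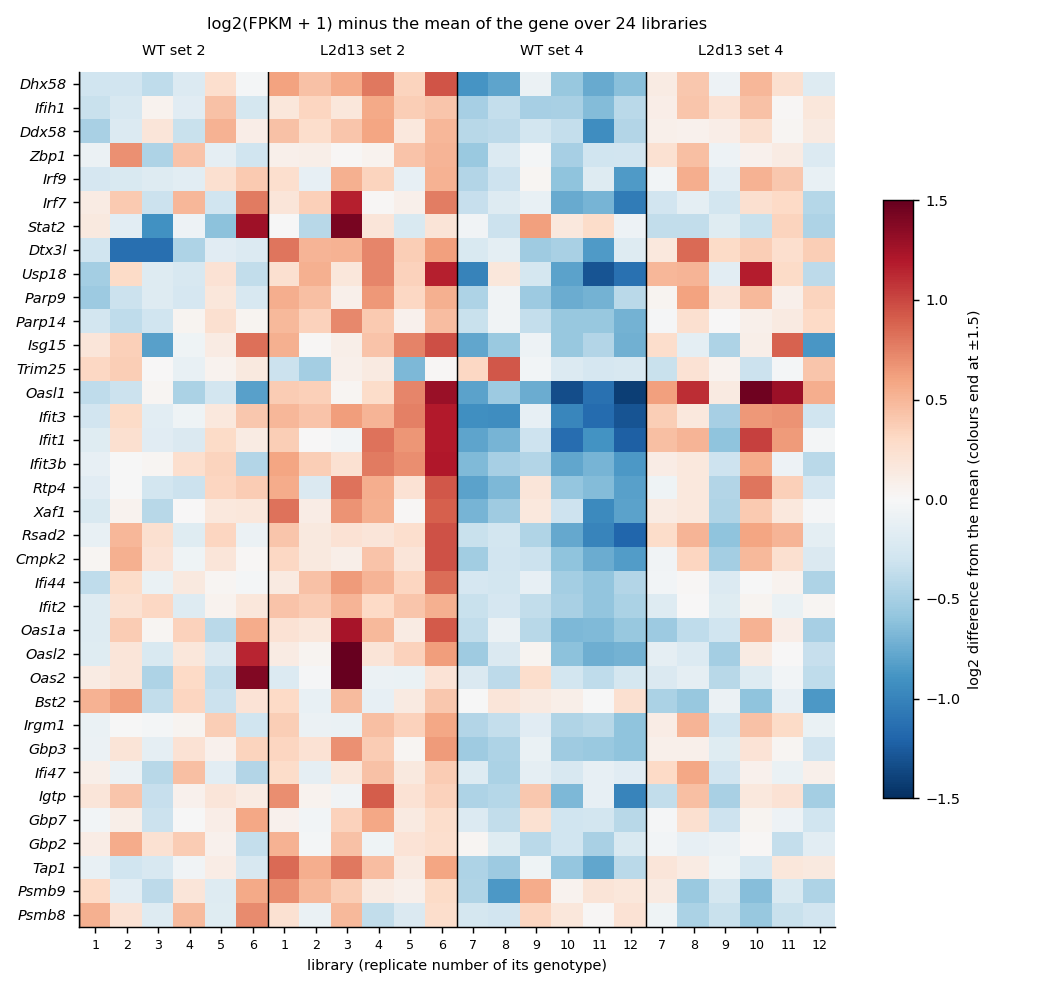
Log2(FPKM + 1) of each member in each of the 24 libraries, minus its mean over all libraries (colours end at 1.5 above and below). WT set 4 is mostly blue and L2d13 set 2 mostly red, and L2d13 set 2 library 3 and WT set 2 library 6 are the darkest red in Stat2, Oas2 and Oasl2.

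Library 3 of L2d13 set 2 and library 6 of WT set 2 shared a pattern that cut across genotype. They stood apart in more than the members: 11371 and 10713 genes reached an FPKM of 1 there, against at most 10357 and 10049 in the other libraries of their groups, and the median-of-ratios factor of the first, 1.32, was the highest of the 24. Stat2 was 49.1 and 43.8 FPKM there, against at most 20.3 and 19.6 in the other libraries of their groups. Oas2 was 5.98 and 4.71 against at most 1.51 and 1.69, and Oasl2 was 9.05 and 6.12 against at most 3.97 and 2.66. Irf7 was also the highest of its group in both (29.8 and 22.5), as was Oas1a (6.62 and 3.75). Ifit1 and Oasl1 were not: Ifit1 was 3.33 and 3.84 there, and Oasl1 was 3.73 and 1.63, the lowest value of each group. Without both, a choice made after seeing the data, 24 members rose and Psmb8 fell over both sets, and Isg15 and Oasl2 joined those called higher.

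The wider pathway was read from further lists. Of 11 interferon genes, 4 had a row and 0 passed the filter: Ifnb1 reached at most 0.08 FPKM and was at 0 in 20 of the 24 libraries, Ifna4 reached 0.09 and was at 0 in 23, Ifng reached 0.09 and was at 0 in 18, and Ifnk reached 0.25 and was at 0 in 12. Interferon transcripts were thus listed at or near 0 in both genotypes. Of 15 tested receptors, kinases and factors, 6 rose and 0 fell, beside 25.9% higher among all genes, with a median log2 difference of 0.15 against 0.12 for all genes. Under median-of-ratios scaling, quantile normalization or the replicate block 4 rose. Among those that rose were Ifngr1 (0.43, adjusted p = 0.000317), the ligand-binding chain of the receptor for type II interferon, Jak1 (0.41, adjusted p = 0.00205), a kinase of both receptor types, and Ifngr2 (0.53, adjusted p = 0.00483). Of 9 further sensors and adaptors, 2 rose, the endosomal double-stranded RNA receptor Tlr3 (0.49, adjusted p = 0.000161) and Tmem173 (0.28, adjusted p = 0.0119), which encodes STING. Of 8 brakes, 2 rose, the phosphatase Ptpn6 (0.37) and Nlrx1 (0.24), and 1 did under median-of-ratios scaling or with the replicate block. The shares of brakes and of sensors and adaptors that rose were close to or under the 25.9% of all genes.

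Another 45 interferon-induced genes outside the list rose in 17 cases and fell in 0, beside 25.9% and 4.86% of all genes. Their median was 0.23, against 0.12 for all genes. Under median-of-ratios scaling 15 rose and 2 fell, beside 12.3% and 10.4% of all genes. In set 2, 7 rose (13% of all genes), and 0 did under median-of-ratios scaling or quantile normalization. In set 4, 7 rose (10.3% of all genes), with 7 and 8 under these rescalings. Over both sets Parp12 (0.59), Trim21 (0.48), Lgals3bp (0.73) and Nmi (0.44) had the smallest p of the 45. Lgals3bp, a secreted glycoprotein, had a mean FPKM of 37.2 ± 6.5 (SD, n = 12) with L2d13, against 23.1 ± 8.84 (SD, n = 12) in WT livers. Of 15 class I presentation genes, 3 were higher and 3 lower, beside 25.9% higher and 4.86% lower among all genes. Under median-of-ratios scaling 2 were higher and 4 lower, beside 12.3% and 10.4% of all genes. With the replicate block 2 were higher and 0 lower, beside 20.25% and 3.73% of all genes. The risers were the chaperones Calr (0.81) and Pdia3 (0.64), which also serve protein folding at large, and the class I transactivator Nlrc5 (0.29). The genes that fell were Psme1 (-0.34), a proteasome activator subunit, Psmb10 (-0.38), the immunoproteasome subunit that goes with Psmb8 and Psmb9, and B2m (-0.35), the light chain of class I molecules. Of 6 class II genes 0 were called by limma, with 0 at an unadjusted p under 0.05.

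**Figure D5:**
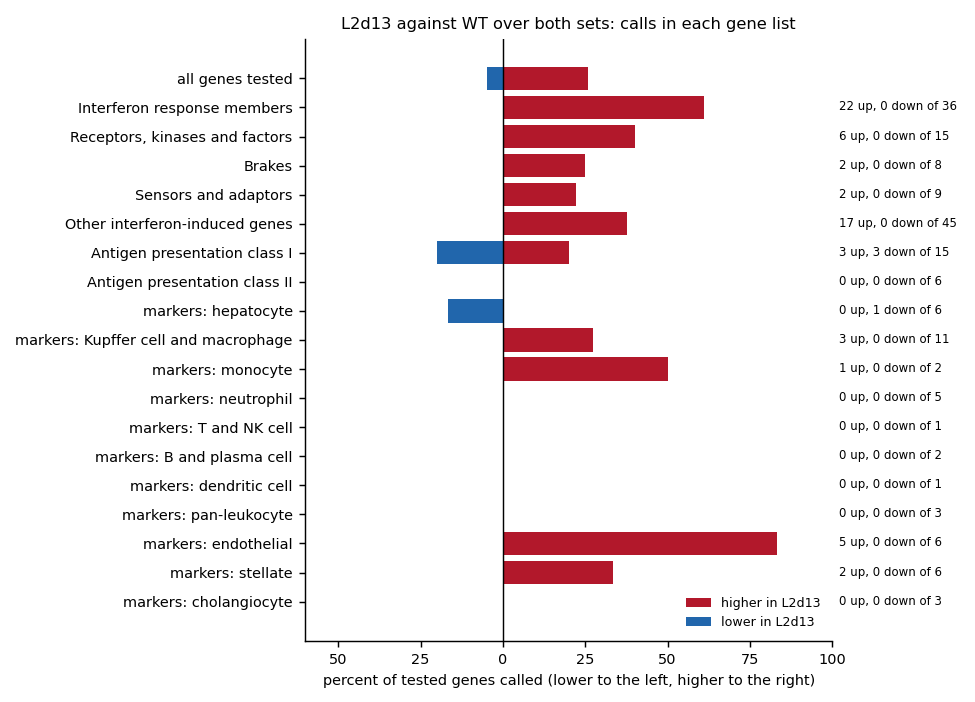
Percent of tested genes in each list that limma called higher (red, to the right) or lower (blue, to the left) in L2d13 livers over both sets; counts stand at the right. The interferon response members (22 of 36) lie above all tested genes (25.9% higher), and class II genes and markers of neutrophils, lymphocytes and dendritic cells show no call.

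Markers of some other liver cells moved with genotype and set as well. Of 6 endothelial markers 5 rose over both sets (median 0.61), led by Lyve1 (0.99) and Oit3 (0.88), beside 25.9% of all genes. Under median-of-ratios scaling 2 did, beside 12.3% of all genes. Of 11 Kupffer cell and macrophage markers 3 rose (Clec4f 0.61, Vsig4 0.68 and Csf1r 0.60; list median 0.52), a share near the 25.9% of all genes, and 0 did under median-of-ratios scaling or within the libraries of like FPKM per fragment. Summed FPKM of the Kupffer list was 169, 234 and 385 (lowest, median, highest) in L2d13 and 137, 197 and 266 in WT livers of set 2, and 78.2, 152 and 278 against 50.5, 78.8 and 181 in set 4. The highest of these medians was that of L2d13 set 2 and the lowest that of WT set 4. This was also so for 29 and 30 of the 36 members, and 11 shared the full order of the 4 medians. More members, 15, had another order, with L2d13 set 4 above WT set 2. The sums of the endothelial, stellate, monocyte and pan-leukocyte lists had the same full order as the Kupffer sum, so it was not particular to Kupffer markers. The share of all genes with that order was not computed. The endothelial sum was 83.6, 94.5 and 170 against 31.3, 58.9 and 90.2 in set 2, and 32.04, 47.1 and 73.5 against 20.9, 32.6 and 73.6 in set 4. Of 6 stellate markers 2 rose (Lrat and Rgs5), and of 2 tested monocyte markers 1 did (Fcgr1), beside 25.9% of all genes. Chil3 was at 0 in 10 libraries. Of markers that passed the filter, those of neutrophils (5 of 6), T and NK cells (1 of 10), B and plasma cells (2 of 6) and dendritic cells (1 of 6) had 0 calls by limma over both sets and 0 at an unadjusted p under 0.05. For lymphocytes and dendritic cells this rests on 1 or 2 genes a list. The pan-leukocyte sum of 3 genes was 8.54 to 31.9 in L2d13 and 7.37 to 12.02 in WT livers of set 2 and 5.59 to 12.8 against 4.45 to 10.6 in set 4. Of the 6 hepatocyte markers, Ttr fell over both sets (-0.69, adjusted p = 0.000141) and in each set, and 3 were lower at an unadjusted p under 0.05. In set 2, 0 were called lower under quantile normalization or without L2d13 library 3 and WT library 6. In set 4, 0 were within the libraries of like FPKM per fragment. Under quantile normalization the list median over both sets was 0.06 instead of -0.17, with 1 of the 6 markers higher and 1 lower. Their summed FPKM was 27414, 47371 and 52797 in L2d13 against 48073, 53829 and 55651 in WT livers of set 2, and 41176, 44627 and 52693 against 51601, 53963 and 55671 in set 4. The part of these cells in the difference of the members was not tested.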

How the data were processed

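Liver RNA of 24 libraries was sequenced on the BGISEQ-500. The authors deposited FPKM per gene with 2 decimals; per the submitters' processing notes, HISAT, Bowtie2 and RSEM were used with the build GRCm38.p5, without versions given. The strandedness of counting is not given in the sources used here. Columns of no sample: 0. Gene identifiers were named from RefSeq (GRCm38.p6): 18040 matched and 131 did not. Gene coordinates are from GENCODE M21 (GRCm38).

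The 10532 genes that reached an FPKM of 1 in 6 or more libraries were fitted as log2(FPKM + 1) with limma 3.58.1 in R 4.3.3, with variances moderated along a trend on mean expression. The result over both sets came from additive terms for set and genotype; the other comparisons came from a fit with 1 mean per group. Tests were two-sided, with Benjamini-Hochberg adjustment over all tested genes and a threshold of 0.05. Folds include the pseudocount. Correlations between libraries lay between 0.909 and 0.992, and no pair held identical values. The procedure was tested on simulated data, drawn as normal and independent between genes, with 200 genes changed. A 1.5-fold change was found in 83% of these genes over both sets, 57% in set 2 and 14.5% in the difference between the sets. At 1.25-fold the shares were 28%, 0% and 0%, and at 2-fold 96.5%, 90.5% and 71%. The test of the difference between the sets thus missed most changes of 1.5-fold or less. Tables and figures came from Python 3.11.15 (numpy 2.4.6, pandas 2.3.3, matplotlib 3.10.9).

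FPKM carries no read total, so the depth is unknown and no counting interval is given. The relative FPKM of 1 fragment was taken as the period of low values (from 0.05 FPKM) of 244 genes.

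The members, the further lists and the tests were chosen with earlier results of these data known, and a pattern seen before is no independent support. Given in full are the 14 members with the smallest p over both sets, the 4 with the smallest p within set 2, within set 4, in the difference between the sets and between the sets in WT, and Stat2, Irf7 and Irf9; of each further list, up to 4 genes with the smallest p. Of the further lists, 1 gene within this rule is not reported here, while counts include it. Where a list had 5 or fewer calls, other called genes may be named. Members named beyond these were singled out after their values were seen. Alternatives were pseudocounts of 0.1 and 0.5, no filter or a filter on 12 libraries, median-of-ratios scaling, quantile normalization, no variance trend, library weights, a replicate block, the 14 libraries within 2% of the common FPKM per fragment, each set alone and leaving out libraries.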

Additional observations from a re-analysis of the deposited data

Results flagged for a closer look

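In 19 of 144 combinations of a member and a group of 6 libraries, 1 library lay so far from the nearest other that the gap exceeded Dixon's critical share of the range. For independent, normally spread values chance alone flags about 1 in 20. The members share libraries and may vary together, and FPKM need not be normally spread. The number of flags was thus not tested against chance. WT set 4 library 9 had 6 of them, all high: Ifit3 at 5.86 FPKM (next 2.95), Oas2 at 1.62 (0.88), Dhx58 at 4.10 (2.64), Rtp4 at 9.44 (5.14), Gbp3 at 1.45 (0.90) and Gbp7 at 2.06 (1.26). L2d13 set 2 library 3 was high in Stat2 at 49.13 (next 20.35), Oas2 at 5.98 (1.51) and Oasl2 at 9.05 (3.97). WT set 2 library 6 was high in the same 3 genes, with Stat2 at 43.84 (19.63), Oas2 at 4.71 (1.69) and Oasl2 at 6.12 (2.66). L2d13 set 2 library 6 was high in Ifit3 at 16.08 (11.61), Rsad2 at 6.75 (4.34) and Cmpk2 at 4.84 (3.06). Single flags were Stat2 in L2d13 set 4 library 11 at 22.50 (15.43), Dtx3l in L2d13 set 4 library 8 at 13.25 (9.19), and the low values of Ddx58 in WT set 4 library 11 at 1.53 (2.57) and of Ifi47 in WT set 4 library 8 at 5.56 (6.76).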

How the results depend on the processing

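Over both sets 15 members were called higher under every alternative and without each library in turn: Ddx58, Dhx58, Dtx3l, Gbp3, Ifih1, Ifit1, Ifit3, Ifit3b, Oasl1, Parp14, Parp9, Rtp4, Tap1, Usp18 and Xaf1. The share of all genes called higher under every alternative was not computed. In single alternatives it ran from 12.3% under median-of-ratios scaling to 38.8% with library weights. Leaving out 1 library gave 22 to 26 members higher and 0 to 2 lower over both sets, 10 to 14 and 0 to 0 in set 2, 17 to 20 and 0 to 1 in set 4, 0 to 0 for the difference between the sets, 0 to 5 lower between the sets in WT and 3 to 9 in L2d13. The number lower over both sets, 0, was 3 under median-of-ratios scaling and in the libraries of like FPKM per fragment, 2 under quantile normalization and library weights, and 1 without L2d13 set 2 library 3 and WT set 2 library 6. In set 2 the number higher, 13, was 7 under median-of-ratios scaling and 5 under quantile normalization, and the number lower, 0, was 1 in the libraries of like FPKM per fragment. In set 4 the number higher, 20, was 5 in the libraries of like FPKM per fragment, where fewer libraries were fitted, and the number lower, 1, was 4 with library weights and 0 with the replicate block and in those libraries. Between the sets in WT the number lower, 3, was 5 with a pseudocount of 0.1, 1 with no filter, median-of-ratios scaling or quantile normalization, 0 with a filter on 12 libraries or in the libraries of like FPKM per fragment, and 19 with library weights. Between the sets in L2d13 the number lower, 7, was 2 under median-of-ratios scaling, 1 under quantile normalization, 18 with library weights and 4 without the 2 libraries. With library weights more of all genes were called lower too. Their share was 10.8% between the sets in WT and 19.4% in L2d13, against 0.104% and 5.51% without weights. In set 4 it was 16.8%, against 2.97%. Beyond the numbers of libraries, the cause was not tested.

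Log2 differences near 0 changed sign. Over both sets Oas2 was -0.0614 under median-of-ratios scaling, -0.0903 under quantile normalization, -0.0955 with library weights, -0.132 in the libraries of like FPKM per fragment and -0.0108 without the 2 libraries, and Psmb9 was -0.120, -0.103 and -0.0293 in the first 3 of these settings. Gbp2 was -0.00585 under quantile normalization and -0.106 in the libraries of like FPKM per fragment. In set 2 Bst2 was -0.157, -0.0832, -0.167, -0.374 and -0.0377 in the order given for Oas2, and in the libraries of like FPKM per fragment Stat2 was -0.0216 and Irf7 -0.0575. Without 1 library each, Oas2 ran from -0.124 to 0.126, Stat2 from -0.169 to 0.0748, Psmb9 from -0.0585 to 0.0776, and Bst2 in set 2 from -0.0938 to 0.105.

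The replicate numbers did not pair the libraries: of 12 same-numbered pairs 4 had a correlation of deviations over 0.1 (range -0.60 to 0.26), and 1 library in all correlated best with its own number. With the replicate block 23 members rose over both sets, 10 in set 2 and 16 in set 4, with 0 lower in each.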

Other observations

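Single libraries set much of the spread within groups. WT set 4 library 9 had the highest value of its group in 22 of the 36 members, L2d13 set 4 library 10 in 16, L2d13 set 2 library 6 in 15 and WT set 2 library 6 in 14. L2d13 set 2 library 3 was the highest of its group in 10 members and the lowest in 10. Among the markers of other cells, Sox9 of the bile duct epithelium was called lower in L2d13 livers of set 4 (-0.65, adjusted p = 0.0152 by limma) and not over both sets, and the neutrophil gene S100a8 was likewise called lower in set 4 alone (-1.12, adjusted p = 0.0254). The difference between the sets was not called for either gene (adjusted p = 0.334 for both).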
